A study of Mus musculus with 24 samples.

Results

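The mRNA levels of 10 chromatin genes were followed in mouse blastocysts whose father, mother or neither parent was obese. The genes were Ezh2, Eed, Suz12, Jarid2 and Rnf2 of the Polycomb complexes, the lysine methyltransferases Setdb1 and Ehmt2, the arginine methyltransferase Prmt5, and the demethylases Kdm4a and Kdm5a. They were taken by symbol from the array's annotation, and all 10 were found among 19938 named genes and were among the 13311 tested. The last pair removes methyl groups rather than adding them, and Eed, Suz12, Jarid2 and Rnf2 are not methyltransferases by themselves.

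Parents were outbred NMRI mice. From 3 weeks of age they ate a modified high-fat diet (cohort of 7 animals) or a control diet (cohort of 14 animals) for 9 weeks, were mated at 12 weeks, and all ate the control diet during mating. The groups were embryos of lean parents (control diet in both), of an obese father (high-fat father, control mother) and of an obese mother (high-fat mother, control father). Each was split into female and male embryos, which gave 6 groups of 4 arrays. Every array carried RNA amplified from the pooled lysate of 3 embryos of one sex and one mother, isolated on day 3.5 after mating. The sources used here do not name the mother and father of each pool, so p-values measure the spread between pools, and pools may share a parent.

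Polycomb repressive complex PRC2 places the silencing mark H3K27me3 on histone tails: Ezh2 is its catalytic subunit, Suz12 the scaffold, Eed the subunit that binds the finished mark, and Jarid2 an accessory protein that helps recruit the complex. Rnf2 (RING1B) is the ubiquitin ligase of the complex PRC1, which modifies histone H2A. Setdb1 and Ehmt2 (G9a) methylate H3K9, Prmt5 forms symmetric dimethylarginine, Kdm4a removes methyl groups from H3K9 and H3K36, and Kdm5a removes them from H3K4. In the early embryo the Polycomb complexes and the H3K9 methyltransferases are known for holding developmental genes and retroelements silent while the first lineages form.

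Levels are log2 intensities as deposited, and the median of all values in the table was 2.56. Ezh2, Eed, Suz12, Jarid2 and Prmt5 exceeded this median on all 24 arrays, Kdm5a on 23 and Ehmt2 on 22. Kdm4a exceeded it on 13 arrays, Rnf2 on 11 and Setdb1 on 5, so these 3 genes were measured near the middle of the table, where a change in RNA is compressed. Rnf2 and Setdb1 did not pass a filter that asked for 12 arrays above the median. A group difference in such pools can be fewer cells of a type or less RNA per cell, and the 2 cannot be told apart.

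The arrays differed in how widely their values were spread. The standard deviation of all log2 values on an array, called signal spread here, ran from 1.27 to 1.81, with the widest on array 22 (obese father, female) and array 12 (obese father, male, 1.72). RMA commonly gives all arrays the same distribution, and whether these arrays were normalized together or in subsets is not known from the sources used here, so what signal spread stands for is not known either. Of blastocyst markers, 8 of 8 for trophectoderm, 8 of 8 for inner cell mass and epiblast, and 8 of 8 for primitive endoderm exceeded the table median on at least 4 arrays. On all 24 arrays 7, 6 and 5 of them did. The dimmest of each list, Krt7 (mean 2.70), Esrrb (2.62) and Lama1 (2.67), lay near that median. Of markers of other cells, 8 of 9 cumulus and granulosa genes on the array exceeded the table median on at least 4 arrays, with 4 of them above it on all 24 arrays, as did 3 of 5 uterine and oviduct genes, 4 of 8 oocyte genes and 0 of 5 blood genes. The same held for 13311 of the 19938 named genes, so exceeding the median on 4 arrays does not by itself show that a cell type was present.

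The upstream sequences of 4 members are shown first. They were picked because the levels of Ezh2, Eed and Suz12 moved together from array to array and that of Prmt5 did not. Jarid2 moved with Ezh2, Eed and Suz12 as well and is not printed. Whether the sequences bear on these levels was not tested. Each is the 250 bases before the transcription start in the RefSeq promoter table (mouse build GRCm38.p6), read 5′ to 3′ on the gene's strand. The windows are chr6:47595031-47595280 on the minus strand for Ezh2, chr7:89980977-89981226 on the minus strand for Eed, chr11:79992856-79993105 on the plus strand for Suz12 and chr14:54517471-54517720 on the minus strand for Prmt5. Capitals mark a CCAAT box (CCAAT, or ATTGG on the other strand) and the E2F form TTTCCCGC, and no capitals overlap another motif.
Ezh2: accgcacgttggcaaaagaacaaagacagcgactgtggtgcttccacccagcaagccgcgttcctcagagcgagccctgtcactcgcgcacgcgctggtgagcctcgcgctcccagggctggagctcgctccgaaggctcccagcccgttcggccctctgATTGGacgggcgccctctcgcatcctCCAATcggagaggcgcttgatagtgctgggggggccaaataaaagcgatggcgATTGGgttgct
Eed: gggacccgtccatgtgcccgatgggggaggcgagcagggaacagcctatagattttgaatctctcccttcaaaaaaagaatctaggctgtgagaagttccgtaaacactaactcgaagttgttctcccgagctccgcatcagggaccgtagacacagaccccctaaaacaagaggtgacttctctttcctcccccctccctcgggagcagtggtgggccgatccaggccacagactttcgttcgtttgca
Suz12: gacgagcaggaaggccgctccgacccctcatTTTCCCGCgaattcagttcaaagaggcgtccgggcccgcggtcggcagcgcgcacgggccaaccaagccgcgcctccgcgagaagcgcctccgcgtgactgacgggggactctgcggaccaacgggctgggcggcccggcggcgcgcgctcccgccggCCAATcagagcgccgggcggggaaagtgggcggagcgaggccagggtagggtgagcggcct
Prmt5: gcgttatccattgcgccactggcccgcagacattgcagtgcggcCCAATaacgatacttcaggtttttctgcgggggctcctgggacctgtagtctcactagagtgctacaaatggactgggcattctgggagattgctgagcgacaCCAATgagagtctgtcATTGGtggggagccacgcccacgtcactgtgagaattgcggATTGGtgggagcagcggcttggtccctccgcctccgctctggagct

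The promoter table held 9 of the 10 members. Over its 300-base windows, which also hold the first bases after the start, Ezh2 had 3 CCAAT matches, Prmt5 4, and Eed and Suz12 1 each. The letters CCAAT occur on either strand in 37.4% of 32851 promoter windows of that length and in 7 of the 9 members. TTTCCCGC occurs in 1.07% of windows and, of the 9, in Suz12, and the related E2F form TTTGGCGC in 0.514% of windows and, of the 9, in Ezh2, just after the start and outside the printed stretch. Ezh2 held 31 CpG dinucleotides in its window, Suz12 41, Rnf2 30, Eed 17, Prmt5 16, Setdb1 15 and Kdm4a 13, against a median of 7 and an upper quartile of 20 over all windows. Jarid2 (24 and 23) and Ehmt2 (28 and 40) have 2 start sites in the table. So the Eed and Prmt5 windows resemble each other in CpG count and differ in CCAAT count, and these matches describe letters, not bound sites.

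When male embryos of an obese father were compared with those of lean parents, none of the 10 genes was called. Ezh2, the catalytic subunit of PRC2, read 2.93, 3.28, 3.72 and 2.81 on the arrays of male embryos of lean parents. It read 3.76, 4.36, 3.68 and 5.0 in male embryos of an obese father. Of the latter, 3 of 4 arrays lay above every lean array, and the groups overlapped through a single array at 3.68. The means were 3.18 ± 0.41 and 4.20 ± 0.61 (SD, n = 4 each), a log2 difference of 1.02 (SE 0.53, 95% confidence interval -0.09 to 2.12) with a Benjamini-Hochberg adjusted p of 0.353 in limma.

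**Figure D1:**
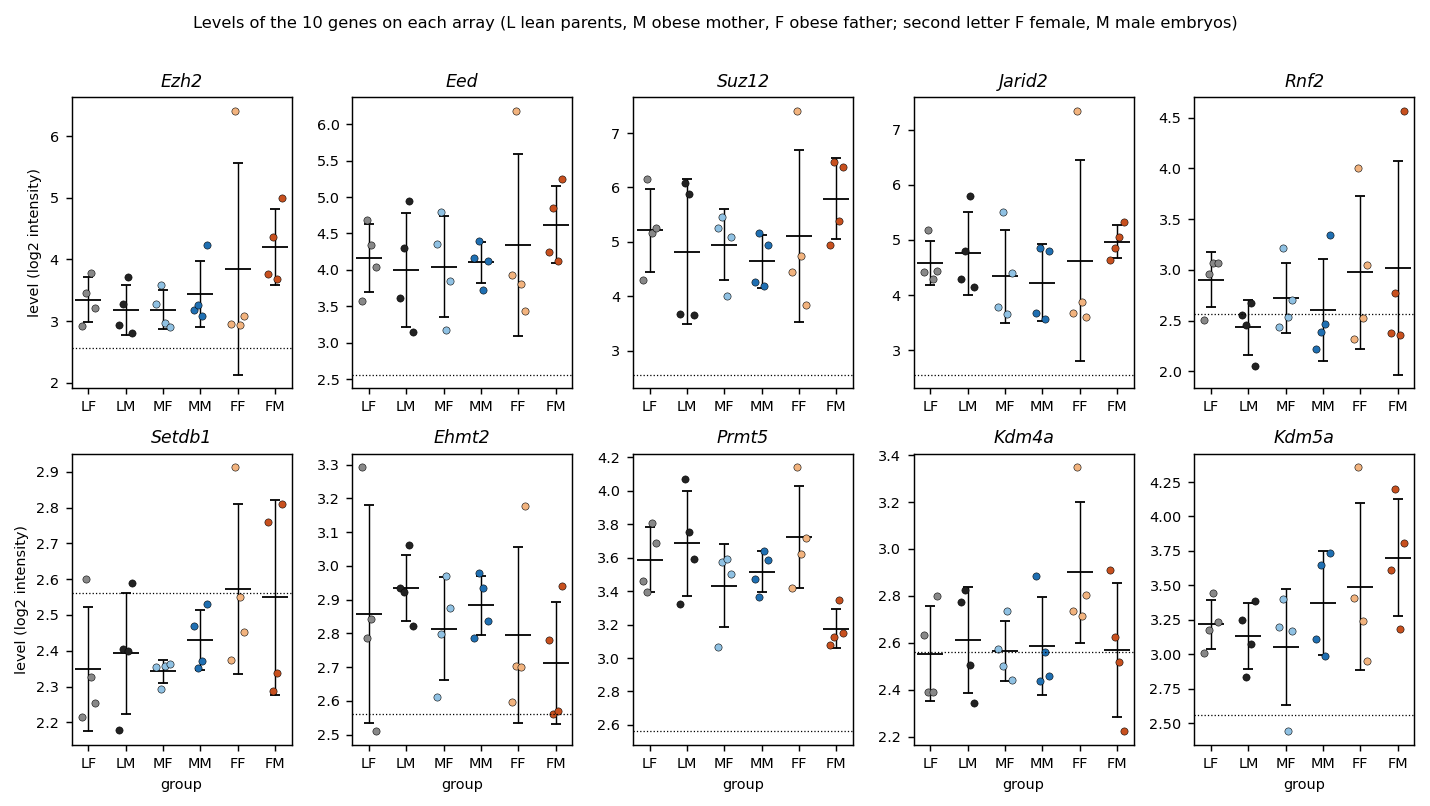
Level (log2 intensity, vertical axes differ between panels) of each of the 10 genes on the 24 arrays, by group, with the mean and SD of 4 arrays as bars and the table median of 2.56 as a dotted line. In the obese-father female group 1 array stands far above the others for Ezh2 (6.41 against 2.94 to 3.08), and Prmt5 is lowest as a group in males of obese fathers (3.18 ± 0.12).

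Eed, which binds the finished mark, read 3.61, 4.31, 4.94 and 3.15 in lean males and 4.25, 4.84, 4.12 and 5.25 in obese-father males. All 4 obese-father arrays were above the lean median, but only 1 was above every lean array. The difference was 0.62 (95% confidence interval -0.38 to 1.61, adjusted p = 0.492 in limma). It was 0.93 without lean array 3, 0.33 without lean array 4 and 0.40 without array 12. A second probe set for Eed lay near the table median, with a mean of 2.58, and ran against the first (r = -0.653 over the 24 arrays). On it, lean males had 2.73 ± 0.10 and obese-father males 2.35 ± 0.15 (SD, n = 4 each), so the direction for Eed rests on the probe set chosen.

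Suz12, the scaffold of PRC2, was split within the lean males: 3.68 and 3.65 on 2 arrays, 6.07 and 5.88 on the other 2. Obese-father males read 4.95, 6.47, 5.39 and 6.37, inside or just above that range. The difference of 0.97 (SE 0.65, adjusted p = 0.437 in limma) was therefore smaller than the spread among lean pools (SD 1.34). Jarid2, which helps recruit PRC2, read 4.29, 4.80, 5.80 and 4.15 in lean males and 4.64, 4.85, 5.06 and 5.33 in obese-father males. Its obese-father arrays lay wholly within the lean range, with a difference of 0.21 (adjusted p = 0.864 in limma). Single arrays moved these values: Jarid2 was at 0.56 without lean array 3, 0.051 without lean array 1, 0.0062 without lean array 4, 0.088 without array 12 and 0.32 without array 9. Suz12 was at 0.58 without lean array 4, 0.59 without lean array 1 and 1.39 without lean array 2. Rnf2, the PRC1 ligase, stood apart on array 12 at 4.57, while the other 3 obese-father males read 2.38, 2.78 and 2.35 against 2.55, 2.45, 2.67 and 2.05 in lean males. That gave a difference of 0.59 (adjusted p = 0.439 in limma), which was 0.070 without array 12.

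Prmt5, the symmetric arginine methyltransferase, had the smallest unadjusted p of the 10 genes in this comparison. It read 3.32, 4.07, 3.75 and 3.59 in lean males and 3.08, 3.12, 3.35 and 3.15 in obese-father males. The obese-father arrays sat close together and 3 of 4 were below every lean array, with the overlap made by 3.35 against 3.32. The means were 3.68 ± 0.31 and 3.18 ± 0.12 (SD, n = 4 each), a difference of -0.51 (SE 0.17, 95% confidence interval -0.85 to -0.16) with an unadjusted p of 0.00569 and an adjusted p of 0.316 in limma. An exact two-sided permutation test of the 8 arrays gave p = 0.0571, and the smallest p that 4 against 4 arrays allow is 0.0286.

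Kdm5a, the H3K4 demethylase, read 3.25, 2.83, 3.07 and 3.39 in lean males and 3.61, 4.20, 3.18 and 3.81 in obese-father males. Here 3 of 4 obese-father arrays were above every lean array. The difference was 0.57 (95% confidence interval 0.0087 to 1.12, unadjusted p = 0.0468, adjusted p = 0.336 in limma), and the exact permutation p was 0.0857. The H3K9 enzymes differed less: Setdb1 by 0.16 (adjusted p = 0.545 in limma) and Ehmt2 by -0.22 (adjusted p = 0.439 in limma). Setdb1 was at 0.085 without lean array 1, 0.086 without array 9 and 0.069 without array 12. Ehmt2 read 2.78, 2.56, 2.57 and 2.94 in obese-father males, with 3 of 4 below the lean arrays at 2.93, 2.92, 3.06 and 2.82. Kdm4a, the H3K9 and H3K36 demethylase, differed by -0.04 (95% confidence interval -0.39 to 0.30).

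Counted together, 0 of the 10 genes passed an adjusted p under 0.05 in obese-father males, where limma called 0.00751% of all tested genes (1 gene). At an unadjusted p under 0.05 there were 2 of 10, Prmt5 lower and Kdm5a higher, beside 14.7% of all genes, 4.3% higher and 10.4% lower. Groups without overlap were found for 0 of 10 members and for 8.54% of all genes. Of the 10 differences 7 were above 0 with a median of 0.39, while 33.3% of all genes were above 0 and their median was -0.11. The members' shares of calls were thus near the background.

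**Figure D2:**
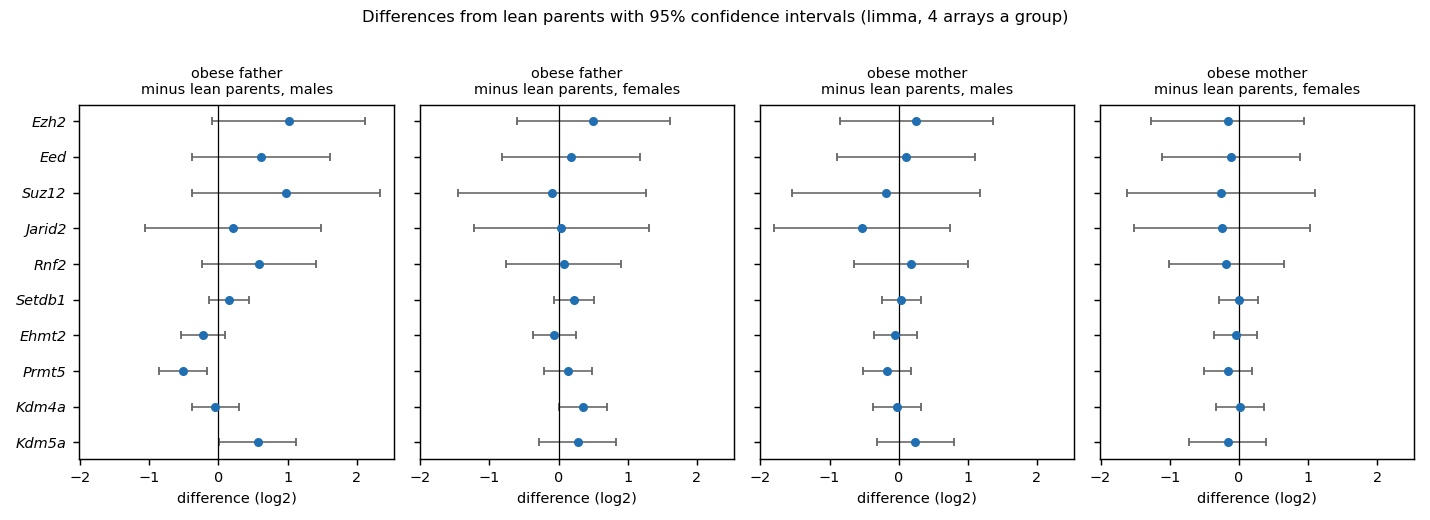
Log2 difference of each gene between embryos of an obese parent and embryos of lean parents (horizontal axis), with 95% confidence intervals from limma, in 4 panels for the parent and sex. The intervals of Prmt5 (-0.85 to -0.16) and Kdm5a in males of obese fathers and of Kdm4a in females of obese fathers exclude 0, none with an adjusted p under 0.05, and those of the PRC2 genes are the widest.

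The same arrays also differed in signal spread and cell markers. Obese-father males had a mean signal spread of 1.56 ± 0.11 and lean males 1.38 ± 0.12 (SD, n = 4 each). The mean level of the 8 inner cell mass and epiblast markers ranged from 4.85 to 5.52 in obese-father males and from 3.85 to 5.06 in lean males, and that of the 8 trophectoderm markers from 4.68 to 5.28 and from 4.35 to 5.03. The 9 cumulus and granulosa markers ranged from 2.70 to 3.0 and from 2.96 to 3.39, and of the 8 of them tested 0 passed the adjusted threshold and 4 were lower at an unadjusted p under 0.05 in limma, beside the 10.4% of all genes. What the cell markers contribute to the differences of the 10 genes was not tested.

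When signal spread was added to the model, the differences of the Polycomb genes between obese-father and lean males shrank or turned. Ezh2 went from 1.02 to 0.0072, Eed from 0.62 to -0.33, Suz12 from 0.97 to -0.26, Jarid2 from 0.21 to -0.97 and Rnf2 from 0.59 to -0.022. The Jarid2 value had an adjusted p of 0.439 in limma. Prmt5 did not shrink, at -0.64 with an adjusted p of 0.343 in limma, and Kdm5a was at 0.19. With the first principal component of the residuals as the covariate in place of spread, which by construction leaves every difference as it was, 4 of the 10 genes and 1901 of all genes (14.3%) were called. Because that covariate is taken from the residuals of the same fit, it narrows the error by construction, these p-values are too small, and nothing is read from these calls. The 4 were Ezh2 (adjusted p = 0.0071), Eed (0.0271), Suz12 (0.0236) and Prmt5 (0.0266) in limma.

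Across all 24 arrays the PRC2 genes followed signal spread closely. With the 6 group means kept in the model, the level rose by 0.56 for Ezh2, 0.52 for Eed, 0.68 for Suz12 and 0.65 for Jarid2 for every 0.1 of spread (adjusted p = 3.6e-07, 2.48e-08, 5e-07 and 1.14e-07 in limma). Rnf2 rose by 0.34 (adjusted p = 0.000393), Kdm5a by 0.20 (adjusted p = 0.00189) and Setdb1 by 0.07 (adjusted p = 0.0469). Without array 22, Kdm5a and Setdb1 no longer passed (adjusted p = 0.0881 and 0.427), while the PRC2 genes and Rnf2 did. Ehmt2 had a slope of -0.02, Prmt5 of 0.07 (adjusted p = 0.0901) and Kdm4a of 0.01, and none of these 3 passed.

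A slope was also called for 64.2% of all tested genes, 2558 higher (19.2%) and 5988 lower (45%). The 7 called members were all higher, against that 19.2%, and spread is computed from the same values. The share is over tested genes of every level, and one over genes of like level was not computed. The PRC2 genes lay above the table median of 2.56, with means from 3.53 (Ezh2) to 5.09 (Suz12). Without array 22, 40.7% of all genes were called. The direction of most slopes was the opposite one: the correlation with spread was 0.902 for Ezh2, 0.928 for Eed, 0.884 for Suz12 and 0.850 for Jarid2, while the median over all tested genes was -0.418. Prmt5 had 0.088 and Ehmt2 -0.223. These are descriptions over arrays amplified with the same kits.

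**Figure D3:**
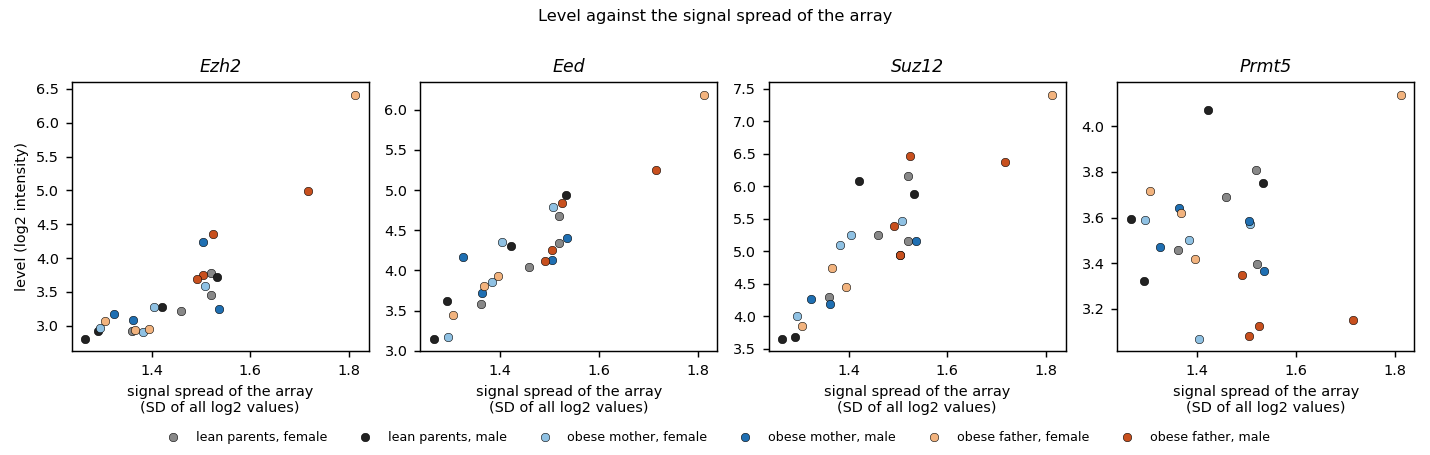
Level (log2 intensity) of Ezh2, Eed, Suz12 and Prmt5 against the signal spread of the array (SD of all its log2 values), 1 point per array, coloured by group. Ezh2, Eed and Suz12 are low on the arrays near 1.27 and highest on the one at 1.81, and Prmt5 shows no such climb, with males of obese fathers low at 3.08 to 3.35.

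The levels varied over the 24 arrays by different amounts. The SD over arrays was 0.82 for Ezh2, 0.68 for Eed, 0.97 for Suz12, 0.87 for Jarid2 and 0.58 for Rnf2, against a median of 0.259 and an upper quartile of 0.331 over all tested genes. Setdb1 (0.19) and Ehmt2 (0.19) lay below the lower quartile of 0.218. Prmt5 (0.28) and Kdm4a (0.24) lay near the median, and Kdm5a (0.42) lay above the upper quartile as well. Without array 22 the SD was 0.55 for Ezh2, 0.55 for Eed, 0.85 for Suz12, 0.66 for Jarid2 and 0.53 for Rnf2. The group mean was highest in males of an obese father for these 5 genes and Kdm5a, and lowest there for Ehmt2 and Prmt5.

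Levels of the PRC2 subunits were correlated with one another, and those of Ezh2 also with some members outside PRC2. Eed and Suz12 had r = 0.917 over the 24 arrays and 0.889 without array 22, Ezh2 and Eed 0.864 and 0.773, and Ezh2 and Suz12 0.784 and 0.705. After the linear effect of signal spread was removed, the values were 0.556 for Eed and Suz12, 0.170 for Ezh2 and Eed, and -0.066 for Ezh2 and Suz12. Eed and Suz12 thus kept the highest value of these 3 pairs. Genes outside the members went higher with spread removed, Fzd5 with Eed (r = 0.697) and Fndc9 with Suz12 (0.696), each picked as the most alike. The value also rests on the Eed probe set used, and the second set ran against that one (r = -0.653). No pairing of subunits is therefore read from it. Outside PRC2, Ezh2 had r = 0.768 with Rnf2, 0.765 with Kdm5a and 0.639 with Setdb1. With Kdm4a (0.268), Prmt5 (0.170) and Ehmt2 (-0.208) it was lower. After removal of spread, Ezh2 was at 0.492 with Kdm4a, 0.387 with Setdb1, 0.372 with Kdm5a, 0.328 with Rnf2, 0.210 with Prmt5 and -0.018 with Ehmt2. All of these but the last were above its value with Eed. The PRC2 pairs given here are 3 of 45 pairs, and no test was made of any pair.

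**Figure D4:**
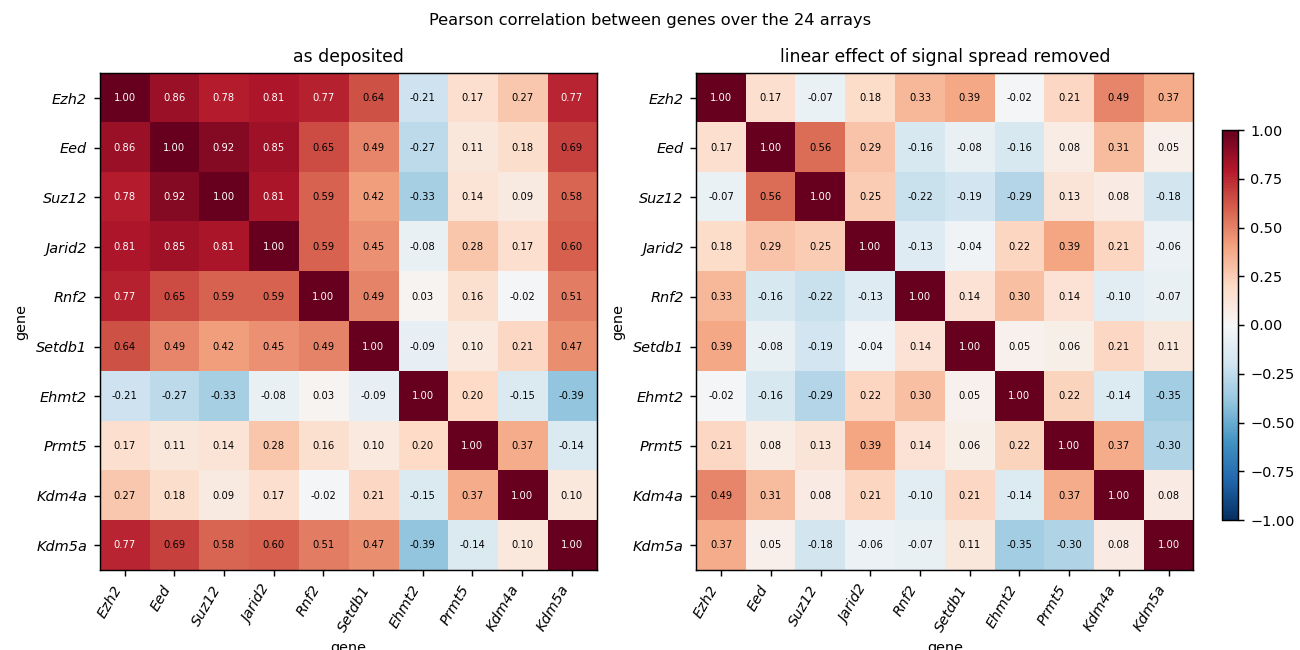
Pearson correlation between the 10 genes over the 24 arrays, as deposited on the left and after the linear effect of signal spread was removed on the right (red positive, blue negative). The block of Ezh2, Eed, Suz12 and Jarid2 is red on the left, and on the right Eed with Suz12 is the reddest cell off the diagonal at 0.56.

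The 3 genes outside the 10 whose levels were most like each member over the 24 arrays were also taken, as a description. For Ezh2 these were Naa35 (r = 0.932), Vapa and Stt3a, for Eed Eif1a (0.926), Ppia and Usp14, and for Suz12 Msh6 (0.920), Trip12 and Ppia. Jarid2 was most like U2surp (0.941), Naa15 and Npl, and Rnf2 like Mrps21 (0.900), Bcap31 and Ap2b1. With spread removed, Ezh2 was most like Gak (0.911) and Prmt5 like Mis18a (0.858). As deposited, Prmt5 was most like Otud1 (0.774), Casp6 and Nat9, Kdm5a like Gkap1 (0.848), Csnk1a1 and Pnn, and Kdm4a like Xpo5 (0.743), Sec24a and Phf11d. Setdb1 was most like Serinc1 (0.816), Nup85 and Ubtf, and Ehmt2 like Bahd1 (0.715), Cdyl2 and Fat1.

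In female embryos of an obese father the differences of the PRC2 genes depended strongly on 1 array. Ezh2 read 2.95, 2.94 and 3.08 on 3 arrays and 6.41 on array 22, against 2.92, 3.46, 3.79 and 3.21 in lean females. Jarid2 read 3.67, 3.88 and 3.60 on the same 3 arrays and 7.34 on array 22, against 4.42, 5.17, 4.30 and 4.43 in lean females. Without array 22 all 3 remaining Jarid2 arrays were below every lean female array. The share of all genes that separate in this way without array 22 was not counted. Signal spread was 1.31 to 1.40 on these 3 arrays and 1.36 to 1.52 on the lean female arrays. The differences were 0.50 for Ezh2 and 0.04 for Jarid2 with all arrays, and -0.36 and -0.86 without array 22. Suz12 read 4.45, 7.41, 4.75 and 3.84, and went from -0.10 to -0.87. Eed went from 0.18 to -0.43.

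Kdm4a was the member with the smallest unadjusted p in obese-father females. It read 2.74, 3.35, 2.71 and 2.80 there and 2.63, 2.39, 2.39 and 2.80 in lean females. All 4 obese-father arrays were above the lean median, and 2 were above every lean array. The difference was 0.35 (95% confidence interval 0.00054 to 0.69, unadjusted p = 0.0497, adjusted p = 0.9997 in limma), with an exact permutation p of 0.0857, and 0.20 without array 22. Prmt5 differed by 0.14, Kdm5a by 0.27, Setdb1 by 0.22, Rnf2 by 0.07 and Ehmt2 by -0.06. Without array 22 Prmt5 was at -0.0033, Kdm5a at -0.015, Setdb1 at 0.11, Rnf2 at -0.27 and Ehmt2 at -0.033. In limma 0 of 10 members and 0% of all genes were called, 1 of 10 and 2.84% passed an unadjusted p under 0.05, and groups without overlap were found for 0 of 10 and 1.22% of genes.

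The effect of an obese father was compared between the sexes for each gene. For Prmt5 the male effect minus the female effect was -0.64 (SE 0.23, 95% confidence interval -1.13 to -0.16, unadjusted p = 0.0119, adjusted p = 0.654 in limma). For Suz12 it was 1.07 (95% confidence interval -0.85 to 2.99), which turned to -0.13 with signal spread as a covariate, and for Ezh2 0.52 (95% confidence interval -1.05 to 2.08). The Ezh2 value with that covariate is not given here, and the level of Ezh2 rose with signal spread as that of Suz12 did. None of the 10 was called, nor was any tested gene (0%), and 1 of 10 members and 7.54% of genes passed the unadjusted threshold.

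Males and females of an obese father were also set against each other directly. Prmt5 read 3.42, 4.14, 3.62 and 3.72 in the females, each above all 4 males at 3.08 to 3.35. The difference of -0.55 (SE 0.17, unadjusted p = 0.00329) had an adjusted p of 0.838 in limma and an exact permutation p of 0.0286, the smallest possible. Of the other members, Kdm4a differed by -0.33 and Suz12 by 0.68, with overlapping groups. In limma 0 of 10 members and 0.00751% of genes were called, while 1 of 10 and 5.42% passed the unadjusted threshold and 1 of 10 and 2.04% did not overlap.

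None of the 10 genes was called between embryos of an obese mother and those of lean parents, and the intervals still allow sizeable differences. In males Ezh2 read 3.18, 3.26, 3.08 and 4.23, with 1 array of the 4 above every lean male, and differed by 0.25 (95% confidence interval -0.85 to 1.36), which was -0.048 with signal spread as a covariate and -0.012 without array 8. Jarid2 read 3.68, 4.86, 3.56 and 4.80, with 2 arrays below every lean male, and differed by -0.53 (95% confidence interval -1.80 to 0.74). Prmt5 read 3.47, 3.37, 3.64 and 3.59, inside the lean male range, and differed by -0.17 (95% confidence interval -0.51 to 0.18). The remaining 7 genes lay between -0.18 (Suz12) and 0.24 (Kdm5a). In limma 0 of 10 members and 0% of genes were called, 0 of 10 and 1.7% passed the unadjusted threshold, and 0 of 10 and 1.4% did not overlap.

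In females of an obese mother 9 of the 10 differences were below 0, while 61.7% of all tested genes were above 0. With signal spread as a covariate 6 of the 9 turned, to 0.21 for Ezh2, 0.24 for Eed, 0.20 for Suz12, 0.20 for Jarid2, 0.044 for Rnf2 and 0.042 for Setdb1. Suz12 read 5.25, 5.46, 4.00 and 5.09 against 4.29, 6.15, 5.16 and 5.25 in lean females, a difference of -0.26 (95% confidence interval -1.62 to 1.10). Ezh2 read 3.28, 3.59, 2.97 and 2.90, a difference of -0.16 (95% confidence interval -1.27 to 0.94). Kdm5a read 3.20, 3.40, 2.44 and 3.17, with array 19 alone below the table median, and differed by -0.16. The groups overlapped for each of these genes, and the highest of the 10 differences was 0.01, for Kdm4a. In limma 0 of 10 members and 0% of genes were called, 0 of 10 and 2.19% passed the unadjusted threshold, and 0 of 10 and 2.53% did not overlap.

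When the obese parents were compared with each other in males, the PRC2 genes were lower with an obese mother, and none was called. Suz12 had the largest difference, -1.15 (SE 0.65, 95% confidence interval -2.51 to 0.20, adjusted p = 0.583 in limma), and Ezh2 differed by -0.76. Prmt5 was higher with an obese mother by 0.34 (adjusted p = 0.573 in limma), and its 4 arrays at 3.37 to 3.64 lay above the 4 of obese fathers (exact permutation p = 0.0286). With the first residual component as a covariate Suz12 was called (adjusted p = 0.025 in limma, too small for the reason given above), as were 4.52% of all genes. With signal spread as the covariate the Suz12 difference was -0.29. The differences of Ezh2, Eed and Jarid2 with that covariate are not given here, so their direction is shown only as deposited. These genes rose with signal spread, which averaged 1.43 in males of an obese mother and 1.56 in males of an obese father. In limma 0 of 10 members and 0.00751% of genes were called, 0 of 10 and 8.35% passed the unadjusted threshold, and 1 of 10 and 6.84% did not overlap. This comparison shares its obese-father males with the comparison against lean parents.

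In females the obese mother and obese father differed most for Ezh2, by -0.66 (95% confidence interval -1.77 to 0.45), which was 0.20 without array 22. Setdb1 read 2.36, 2.29, 2.36 and 2.36 with an obese mother and 2.37, 2.91, 2.55 and 2.45 with an obese father. The 2 groups did not overlap (exact permutation p = 0.0286), yet the difference was -0.23 (adjusted p = 0.975 in limma) and most of these values lay below the table median. In limma 0 of 10 members and 0% of genes were called, 0 of 10 and 3.25% passed the unadjusted threshold, and 1 of 10 and 1.6% did not overlap.

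In the other groups the sexes were compared in the same way, without a call among the 10 genes. Among embryos of lean parents Rnf2 differed most, with males at 2.55, 2.45, 2.67 and 2.05 and females at 2.50, 2.96, 3.07 and 3.07, a difference of -0.47 (95% confidence interval -1.30 to 0.36). With 3 of 4 females above every male and 1 within their range, the exact permutation p was 0.0857. There 0 of 10 members and 0% of genes were called, 0 of 10 and 3.37% passed the unadjusted threshold, and 0 of 10 and 2.19% did not overlap. Among embryos of an obese mother the differences ran from -0.31 (Suz12) to 0.32 (Kdm5a), where 0 of 10 members and 0% of genes were called in limma, 0 of 10 and 1.41% passed the unadjusted threshold, and 0 of 10 and 1.66% did not overlap. The effect of an obese mother in males minus that in females ran from -0.29 (Jarid2) to 0.41 (Ezh2). Neither end held its direction: Ezh2 was at -0.26 with signal spread as a covariate, and Jarid2 at 0.099 without array 18 and 0.058 without array 3. This comparison had 0 of 10 members and 0% of genes called in limma and 0 of 10 and 2.58% at the unadjusted threshold.

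Of 98 other genes of the same pathways 74 were tested, and 0 were called by limma in any of the 11 comparisons. In males of an obese father 6 of the 74 passed an unadjusted p under 0.05, 2 higher and 4 lower, which is 8.11% against 14.7% of all tested genes (4.3% higher and 10.4% lower). Among PRC2 and its accessory proteins, Mtf2, which helps PRC2 bind CpG islands, was 1.39 higher (adjusted p = 0.326) and the histone chaperone Rbbp7 was 1.31 higher (adjusted p = 0.347), while Ezh1, the paralog of Ezh2, was at -0.19. The SD among lean males was 1.05 for Mtf2 and 1.30 for Rbbp7, and the groups overlapped for both. The list of 11, which includes Ezh2, Eed, Suz12 and Jarid2, had a median of 0.22 and 8 of 11 above 0. Among 17 tested PRC1 and deubiquitination genes the median was -0.13, and Rybp, a subunit of variant PRC1, was at -0.70 (adjusted p = 0.316), the chromodomain gene Cbx8 at -0.41 and the ligase Ring1 at -0.27.

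In the H3K9 list the median was 0.13 over 10 tested genes, and the HP1 genes that bind methylated H3K9 were at 1.24 for Cbx5 (adjusted p = 0.318), 1.56 for Cbx3 (adjusted p = 0.348) and 0.34 for Cbx1. The SD among lean males was 0.49 for Cbx5 and 1.80 for Cbx3, and the groups overlapped for both. Setdb1 and Ehmt2, of the same list, were at 0.16 and -0.22. Among 10 tested genes of arginine methylation the median was 0.12. Prmt5 was at -0.51, its partner proteins Coprs at 0.71 (adjusted p = 0.346) and Clns1a at 0.80 (adjusted p = 0.406), and the main asymmetric enzyme Prmt1 at 0.38. In the list of other lysine methyltransferases (21 tested, median -0.03) the H3K4 enzyme Setd1b did not overlap between the groups, at 3.43 ± 0.23 against 3.89 ± 0.23 in lean males (SD, n = 4 each, adjusted p = 0.316), as for 8.54% of all genes, Setd1a was at -0.30 and Kmt2d at 0.87. Among 16 tested demethylases (median 0.01) Riox1 was at 0.90, Kdm1b at -0.21, also without overlap, and Kdm5c at 0.44. The median of all tested genes in this comparison was -0.11. Differences of these other list genes with signal spread in the model are not given here.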

How the data were processed

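The deposited table holds log2 intensities of 35556 probe sets on 24 Affymetrix Mouse Gene 1.0 ST arrays, which the authors made with RMA in affy, as the submitters' processing notes list. The sources used here do not name versions, the genome build or any filter. RNA was amplified from lysate with the NuGEN Ovation One-Direct System and labelled with biotin, per the labels' protocols. RMA pools probes and compresses dim values, so differences near the table median are understated. The number of arrays, 4 a group, limits the precision.

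Gene names came from the platform annotation, in which 21789 probe sets had 1 symbol, 1621 several and 12146 none, and 0 columns matched no sample. Each gene used its set with the highest mean (999 genes have more than 1 set). Genes above the median of all values on at least 4 arrays were tested, 13311 of 19938, which removed 6627. limma 3.58.1 in R 4.3.3 (lmFit, eBayes) fitted a mean for each of the 6 groups on the log2 values, with 11 contrasts and Benjamini-Hochberg adjustment over all tested genes. A gene was called at an adjusted p under 0.05. Single genes also had an exact two-sided permutation test over the 8 arrays compared. The fit was also run on simulated arrays whose noise was independent between genes. That run does not cover variation shared by many genes of an array, such as that which follows signal spread.

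The members, lists and tests were chosen with earlier results of these data known. All 10 members are named, and of other list genes those called or, where none was, up to 3 per list with the smallest unadjusted p in males of obese fathers, plus the 3 genes most correlated with each member (leaving out names without information). The slope on signal spread was added after seeing the data. Promoters are from RefSeq. Protein sequences were not used here.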

Additional observations from a re-analysis of the deposited data

Results flagged for a closer look

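Of 60 groups of 4 arrays (10 genes in 6 groups), 7 held an array far from the other 3 relative to the group's range, where chance gives about 1 in 20. Array 22, from female embryos of an obese father and the array of the widest signal spread, accounted for 3 of them. It read 6.41 for Ezh2 (the others 2.94 to 3.08), 7.34 for Jarid2 (3.60 to 3.88) and 3.35 for Kdm4a (2.71 to 2.80). Array 8, from males of an obese mother, read 4.23 for Ezh2 (3.08 to 3.26). Array 14, from females of lean parents, read 5.17 for Jarid2 (4.30 to 4.43). Array 17, from females of an obese mother, read 3.07 for Prmt5 (3.50 to 3.59). Array 18, from the same group, read 2.29 for Setdb1, where the other 3 all rounded to 2.36, so the distance is small on the log2 scale.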

How the results depend on the processing

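No paired analysis was made, because the sources used here do not name the mother and father of each pool and the array numbers in the titles, 1 to 24, give no pairs. Male and female pools may share a parent, and the comparisons of the sexes take no account of it. The fold changes counted here, and the turns listed below, cover all 10 genes where an obese parent was compared with lean parents. In the other comparisons they cover selected genes only, so turns of the remaining genes there are not counted or listed. Of these fold changes, 670 under other settings kept their direction and side of the threshold, 44 turned and 5 became calls. Those 5 came with the first residual component as a covariate, whose p-values are too small by construction. With each array left out in turn 436 kept both and 52 turned, and the calls among the 10 genes stayed at 0. In males of an obese father the differences of Ezh2, Setdb1, Ehmt2, Prmt5 and Kdm5a turned under none of the alternatives run. Their sizes did not all hold. With signal spread as a covariate Ezh2 fell to 0.0072 (SE 0.27), Setdb1 to 0.027 and Kdm5a to 0.19, while Ehmt2 was at -0.19 and Prmt5 at -0.64. The causes were not tested. Signals near the table median limit Kdm4a, Rnf2 and Setdb1.

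With a stricter filter on dim genes, the genes called numbered 0 for males of an obese father against lean, obese mother against father in males and male against female with an obese father. With arrays centred on their medians, the genes called numbered 0 for male against female with an obese father. Directions turned for Kdm4a (0.041) in males of an obese father against lean, for Kdm4a (-0.036) in females of an obese mother, for Ehmt2 (-0.033) in obese mother against father in females. With a further quantile normalization, directions turned for Kdm4a (0.042) in males of an obese father against lean, for Eed (-0.016), Jarid2 (-0.24) and Rnf2 (-0.015) in females of an obese father, for Kdm4a (-0.034) in females of an obese mother. They also turned for Ehmt2 (-0.024) in obese mother against father in females. With signal spread as a covariate, the genes called numbered 2 for males of an obese father against lean and the father effect, males minus females, 0 for obese mother against father in males and 4 for male against female with an obese father. Directions turned for Eed (-0.33), Suz12 (-0.26), Jarid2 (-0.97) and Rnf2 (-0.022) in males of an obese father against lean, for Ezh2 (-0.048), Eed (-0.18), Rnf2 (-0.0079) and Setdb1 (-0.00080) in males of an obese mother, for Ezh2 (0.21), Eed (0.24), Suz12 (0.20), Jarid2 (0.20), Rnf2 (0.044) and Setdb1 (0.042) in females of an obese mother. They also turned for Suz12 (-0.13) in the father effect, males minus females, for Ezh2 (-0.26) in the mother effect, males minus females. With the first residual component as a covariate, the genes called numbered 1901 for males of an obese father against lean, 2 for females of an obese father and males of an obese mother and 601 for obese mother against father in males. They numbered 1 for obese mother against father in females, 11 for male against female with lean parents and 21 for male against female with an obese father. They numbered 350 for the father effect, males minus females and 9 for the mother effect, males minus females. The members called numbered 4 for males of an obese father against lean and 1 for obese mother against father in males. With array weights, the genes called numbered 2 for males of an obese father against lean and obese mother against father in males. Directions turned for Kdm4a (0.014) in males of an obese father against lean, for Ezh2 (-0.29), Eed (-0.36), Jarid2 (-0.75), Rnf2 (-0.35) and Prmt5 (-0.033) in females of an obese father, for Ehmt2 (0.026) and Kdm4a (-0.030) in females of an obese mother. They also turned for Ezh2 (0.066) in obese mother against father in females. With only the groups compared in the fit, the genes called numbered 0 for males of an obese father against lean, obese mother against father in males and male against female with an obese father. With the 2 arrays of the widest spread left out, the genes called numbered 0 for obese mother against father in males. Directions turned for Kdm4a (0.073) in males of an obese father against lean, for Ezh2 (-0.36), Eed (-0.43), Jarid2 (-0.86), Rnf2 (-0.27), Prmt5 (-0.0033) and Kdm5a (-0.015) in females of an obese father, for Ezh2 (0.20) and Ehmt2 (-0.012) in obese mother against father in females. With probe sets of a gene averaged, directions turned for Eed (0.029) in females of an obese mother. With all probe sets tested separately, the genes called numbered 2 for obese mother against father in males and 0 for male against female with an obese father.

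With each array left out in turn, the genes called ran from 0 to 2 for males of an obese father against lean, from 0 to 1 for females of an obese father, from 0 to 2 for obese mother against father in males, from 0 to 1 for obese mother against father in females and from 0 to 1 for male against female with an obese father. For males of an obese father against lean, differences that crossed 0 were Kdm4a from -0.16 to 0.073. For females of an obese father, differences that crossed 0 were Ezh2 from -0.36 to 0.80, Eed from -0.43 to 0.48, Suz12 from -0.87 to 0.32 and Jarid2 from -0.86 to 0.38. Further such ranges there were Rnf2 from -0.27 to 0.29, Ehmt2 from -0.19 to 0.082, Prmt5 from -0.0033 to 0.24 and Kdm5a from -0.015 to 0.45. For males of an obese mother, differences that crossed 0 were Ezh2 from -0.012 to 0.43, Eed from -0.18 to 0.41, Suz12 from -0.57 to 0.23 and Rnf2 from -0.073 to 0.30. Further such ranges there were Setdb1 from -0.033 to 0.10 and Kdm4a from -0.13 to 0.045. For females of an obese mother, differences that crossed 0 were Eed from -0.36 to 0.17, Suz12 from -0.57 to 0.056, Setdb1 from -0.051 to 0.078 and Ehmt2 from -0.16 to 0.10. Further such ranges there were Kdm4a from -0.048 to 0.093 and Kdm5a from -0.28 to 0.042. For obese mother against father in females, differences that crossed 0 were Ezh2 from -0.96 to 0.20 and Ehmt2 from -0.047 to 0.15. For male against female with lean parents, differences that crossed 0 were Jarid2 from -0.17 to 0.38. For the mother effect, males minus females, differences that crossed 0 were Jarid2 from -0.51 to 0.099.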
